A study of Homo sapiens with 6 samples.

Results

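Oxidative phosphorylation is carried out by 4 respiratory chain complexes and the ATP synthase (complex V), whose subunits come from nuclear DNA and from mitochondrial DNA. The genes described here are the 105 of 58735 listed genes whose symbols name such a subunit. They were the mitochondrially encoded MT-ND, MT-CO, MT-ATP and MT-CYB genes, the NDUFA, NDUFB, NDUFC, NDUFS and NDUFV genes, SDHA to SDHD, the UQCR genes, CYC1, COX4 to COX8 and the ATP5 genes. Pseudogenes, antisense genes and NDUFAF assembly factors were left out, and 151 symbols were dropped as pseudogenes or antisense genes. A literal reading of the symbol rule gives 103 genes, because MT-ATP6 and MT-ATP8 end like pseudogenes, and both were kept. Of the 105 genes, 13 were mitochondrially encoded and 92 nuclear. The symbol rule also took in genes that are no subunits, namely the noncoding NDUFA6-DT, the readthrough genes NDUFC2-KCTD14 and ATP5MF-PTCD1, the ATP synthase inhibitor ATP5IF1, ATP5S and the supercomplex factor COX7A2L.

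RNA-Seq was performed in BT549, a long established line of basal-like breast cancer cells, with 3 libraries (replicates A, B and C) from cells given the solvent DMSO and 3 from cells given AS1842856, each for 48 h. AS1842856 is a small-molecule inhibitor of the transcription factor FOXO1. The labels give a dose of 200 nM and the methods of the study another dose, and this was not resolved. All libraries came from this 1 cell line and 1 compound, with no genetic loss of FOXO1. The libraries held 15289500 to 22981832 counts, and levels are given as CPM, counts put on the same library size by TMM factors that lay between 0.995 and 1.01. The mesenchymal genes VIM and CD44 were abundant (at least 1026.3 and 645.1 CPM), ESR1 and PGR, receptors that basal-like cells lack, had at most 4 counts in any library, and the endothelial and fibroblast markers had at most 4 counts. Among leukocyte markers, CD3E had no counts and LYZ at most 2, while PTPRC had 13 to 26 counts with DMSO and 44 to 74 with AS1842856. ERBB2, a receptor gene of another breast cancer subtype, was present, at 44.8 to 49.0 CPM with DMSO and 23.8 to 26.7 CPM with AS1842856, and fell by 0.90 on the log2 scale. The part of PTPRC and ERBB2 in the results was not tested.

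Complex I takes electrons from NADH and complex II from succinate, and both pass them through coenzyme Q to complex III, cytochrome c and complex IV, where oxygen is reduced. The proton gradient built on the way drives ATP synthesis by complex V. Complex II is wholly nuclear, whereas the other complexes combine nuclear subunits with mitochondrially encoded ones, which are transcribed as long precursors from mitochondrial DNA. In cancer cells, the balance between this pathway and glycolysis has long been of interest.

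Transcripts of the nuclear subunits were mostly higher with AS1842856, by small amounts, whereas those of the mitochondrially encoded subunits differed little between the groups. Of the 92 nuclear genes, 83 had enough counts to be tested. A gene was called where edgeR's quasi-likelihood test gave a Benjamini-Hochberg adjusted p under 0.05 over all 14338 genes tested, and 52 of the 83 (62.7%) were called higher and 3 (3.61%) lower. Over all genes tested, 27.6% were higher and 28.4% were lower. The median log2 fold change of the nuclear genes was 0.21 (quartiles 0.07 to 0.27), a median increase of 15.7%, and that of all genes tested was 0.00. Of the 83, 69 had a fold change above 0. No called subunit gene moved by more than 0.5 on the log2 scale, although 3351 genes in all did. The 3 libraries of each group did not overlap in 49 of the 83 nuclear genes, and in 59.9% of all genes tested, counting either direction. Of the 49, 47 were higher with AS1842856. Of the 14338 genes tested, 4234 were apart and higher and 4348 apart and lower. In these bulk libraries, a change in the make-up of the cells and a change in RNA per cell cannot be told apart.

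**Figure D1:**
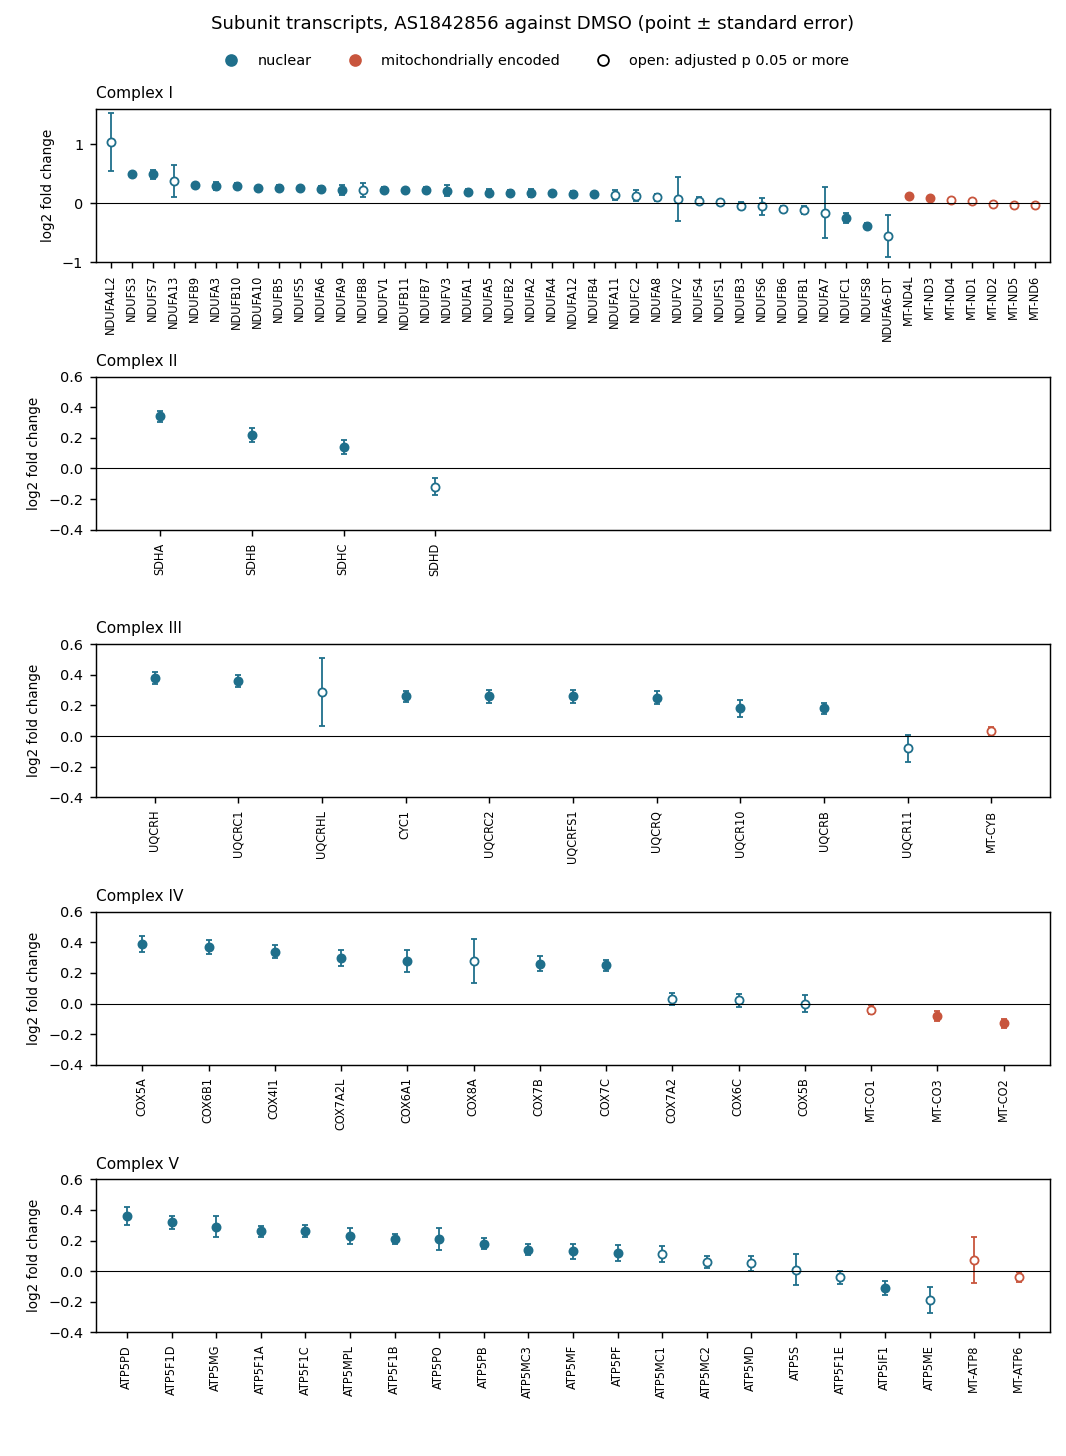
Log2 fold change (vertical axis, AS1842856 over DMSO) of 95 subunit genes tested, as points with standard errors, by complex and with mitochondrially encoded genes at the right of each panel; filled points had an adjusted p under 0.05 and the panel of complex I has a wider axis. The middle of the nuclear genes, from quartile to quartile, lies between 0.07 and 0.27, and the mitochondrially encoded genes between -0.13 and 0.12.

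Of the 13 mitochondrially encoded genes, 2 were higher (MT-ND3 and MT-ND4L), 2 were lower (MT-CO2 and MT-CO3) and 9 were not called. The called shares of the 13 were 15.4% in each direction, against 27.6% higher and 28.4% lower over all genes tested. Their median log2 fold change was -0.01, with a range from -0.13 to 0.12. The nuclear median exceeded theirs by 0.22, and this difference of medians ran from 0.15 without DMSO replicate C to 0.25 without DMSO replicate A. MT-CO3 and MT-ND3 lost their calls when single libraries were left out, whereas MT-CO2 and MT-ND4L kept theirs. Without DMSO replicate C, 5 of the 13 genes were higher and 1 lower, and the median of the 13 was 0.03.

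The summed level of the nuclear genes was 8639, 8330 and 8408 CPM in DMSO replicates A, B and C. With AS1842856 it was 9774, 9661 and 9778 CPM. The groups did not overlap, and the mean rose by 15.1%, from 8459 ± 161 to 9738 ± 67 CPM (SD, n = 3 per group). The mitochondrially encoded subunit genes, although far fewer, held more of the counts. They summed to 23619, 23257 and 24917 CPM with DMSO and to 23141, 23971 and 23514 CPM with AS1842856, so that the groups overlapped and the means differed by -1.63%. The log2 ratio of their share of all counts, -0.03 over all libraries, was 0.00 without DMSO replicate C, the library with the highest sum. The ratio of the mitochondrially encoded to the nuclear sum was 2.73, 2.79 and 2.96 with DMSO and 2.37, 2.48 and 2.40 with AS1842856. All 3 treated libraries therefore lay under all 3 controls. No p is given for these sums, and for groups of 3 the smallest two-sided p that exact permutation allows is 0.10.

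**Figure D2:**
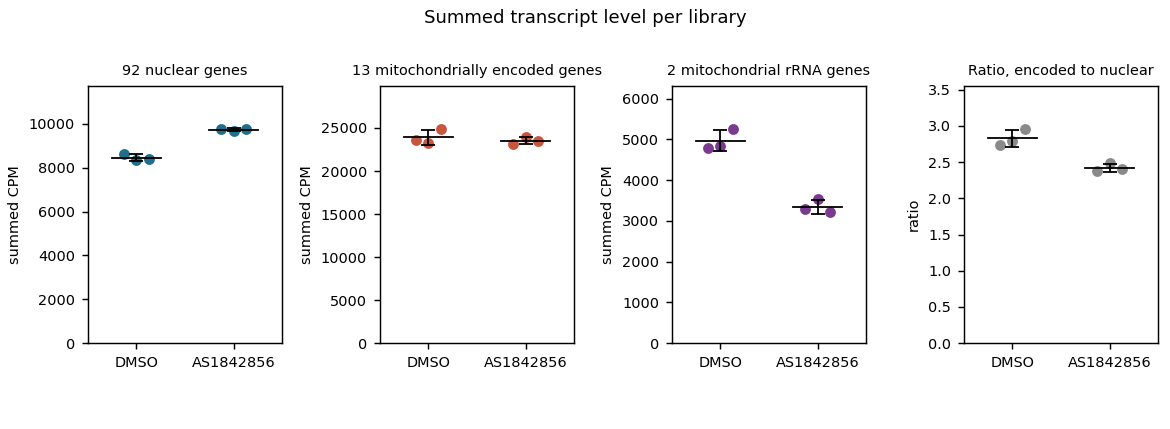
Summed level in each library (points, CPM, except the last panel, which is a ratio) of the nuclear subunit genes, the mitochondrially encoded subunit genes, the mitochondrial rRNA genes and the ratio of the second to the first; lines are means and bars SD (n = 3). The nuclear sums separate upward, the rRNA sums and the ratio separate downward, and the mitochondrially encoded sums overlap.

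Motifs of NRF1, the ETS factor GABPA and YY1 are known from promoters of nuclear subunit genes, and ERRs and FOXO1 bind motifs of their own, so all 5 were looked for in the promoters of RefSeq (GRCh38.p14, 250 bases before to 50 after the start, the first listed start of a gene). Of the 92 nuclear genes, 72 had an entry, matched by Ensembl identifier or, where that failed, by symbol or older symbol. The NRF1 letters GCGCANGCG, on either strand, were in 22 of 72 (30.6%) and in 8.05% of all 27305 promoters. The ETS letters CCGGAAG, which GABPA can bind, were in 27.8% against 10.7%, and the YY1 letters AANATGGCG in 23.6% against 3.37%. The ERR letters TCAAGGTCA were in 1 of 72 (1.39%) against 0.359%, and the FOXO letters GTAAACA in 0 of 72 against 3.41%. The median GC content was 61% in the 72 and 58.3% in all promoters, and its part in these shares was not tested. The 72 include some untested genes and NDUFA6-DT, whose YY1 letters are the same stretch as those of NDUFA6. The shares were also set side by side for the 40 genes called higher and the 27 tested and not called higher, without a test. NRF1 letters were in 35% against 25.9%, ETS letters in 30% against 29.6% and YY1 letters in 25% against 25.9%. ERR letters were in 0 of 40 against 1 of 27, and FOXO letters in none of either. The letters searched do not overlap each other in the promoters printed here, and a match is only a description of the sequence.

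The promoters of SDHA, NDUFS7, UQCRH and ATP5PD, the largest called rises of complexes II, I, III and V, are shown with that of NDUFS8, the largest fall. They run from 150 bases before the RefSeq start to 30 bases after it, with motif letters in capitals.
SDHA (chr5:218170-218349, plus strand): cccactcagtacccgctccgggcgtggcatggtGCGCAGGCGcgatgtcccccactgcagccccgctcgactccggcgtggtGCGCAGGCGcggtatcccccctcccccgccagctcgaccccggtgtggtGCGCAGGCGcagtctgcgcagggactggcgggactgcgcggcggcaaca
NDUFS7 (chr19:1383757-1383936, plus strand): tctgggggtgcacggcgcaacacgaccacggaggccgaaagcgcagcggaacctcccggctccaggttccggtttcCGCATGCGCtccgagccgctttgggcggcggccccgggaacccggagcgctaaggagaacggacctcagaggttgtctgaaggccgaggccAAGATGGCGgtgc
UQCRH (chr1:46303548-46303727, plus strand): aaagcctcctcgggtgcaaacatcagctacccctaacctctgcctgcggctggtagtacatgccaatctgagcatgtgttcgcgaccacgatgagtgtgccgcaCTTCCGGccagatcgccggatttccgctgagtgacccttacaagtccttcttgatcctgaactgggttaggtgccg
ATP5PD (chr17:75046940-75047119, minus strand): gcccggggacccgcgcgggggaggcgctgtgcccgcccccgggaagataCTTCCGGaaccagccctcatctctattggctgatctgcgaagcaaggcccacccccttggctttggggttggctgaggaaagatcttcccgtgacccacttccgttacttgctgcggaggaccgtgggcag
NDUFS8 (chr11:68030531-68030710, plus strand): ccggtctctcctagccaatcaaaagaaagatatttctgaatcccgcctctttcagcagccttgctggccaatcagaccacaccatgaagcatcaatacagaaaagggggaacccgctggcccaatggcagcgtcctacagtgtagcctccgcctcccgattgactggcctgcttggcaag

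SDHA had the NRF1 letters 4 times, with first bases at -166, -117, -68 and -19 from the start, of which the first lies before the stretch shown. NDUFS7 had NRF1 letters at -74 and YY1 letters at 18. UQCRH and ATP5PD each had ETS letters, at -46 and -101. NDUFS8 had YY1 letters at -180, outside the stretch shown, and COX5A, the largest rise of complex IV, had none of the 5 motifs.

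Complex I is the largest. Of the 40 nuclear genes placed in it by symbol, 39 were tested: 22 were higher, 2 were lower, 15 were not called and the median log2 fold change was 0.18. The shares were 56.4% higher and 5.13% lower, against 27.6% and 28.4% of all genes tested. The 40 include NDUFA6-DT, NDUFC2-KCTD14, NDUFA4 and NDUFA4L2, so they are not all subunits of complex I. Its electron path from NADH runs through a flavin and a chain of iron-sulfur clusters that are held by conserved nuclear subunits. Of the core subunits NDUFV1, NDUFV2, NDUFS1, NDUFS3, NDUFS7 and NDUFS8, not all of which hold a cluster, 3 were higher, 1 was lower and 2 were not called. NDUFS7 (ENSG00000115286, chr19:1383527-1395589 on GRCh38), which holds the last cluster before coenzyme Q, was at 25.2, 28.1 and 25.6 CPM with DMSO and at 37.1, 34.2 and 39.8 CPM with AS1842856. The groups were apart and NDUFS7 rose by 0.49 in log2 units (SE 0.072, adjusted p = 2.6e-10 in edgeR's quasi-likelihood test), the largest called rise of the complex beside NDUFS3. NDUFS3 also rose by 0.49, with 67.5 ± 3.49 CPM in DMSO and 95.4 ± 1.57 CPM in AS1842856 (SD, n = 3 each). NDUFV1, which holds the flavin, rose by 0.23.

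NDUFS8, which holds a pair of iron-sulfur clusters of the same path, went the other way. Its gene (ENSG00000110717, chr11:68030617-68036644) was at 94, 85.4 and 84.7 CPM with DMSO and at 62.6, 68.2 and 70.8 CPM with AS1842856. All treated libraries lay under all controls, and NDUFS8 fell by 0.39 in log2 units (SE 0.05, adjusted p = 9.63e-13 in edgeR's quasi-likelihood test). It was the only nuclear subunit gene that was called lower in every alternative analysis. NDUFS1, the largest of the core subunits, had means of 156.4 ± 1.86 and 158.3 ± 5.89 CPM (SD, n = 3 each), and its log2 fold change was 0.02 with a 95% interval from -0.06 to 0.10. NDUFV2, NDUFA7 and NDUFA13 had 111, 77 and 229 counts over all 6 libraries, far fewer than their partners, and between 66.5% and 79.0% of their annotated exonic bases belonged to no other gene.

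The accessory subunits of complex I surround this core. Among the NDUFA genes 9 of 15 (60%) were called higher, and among the NDUFB genes 7 of 11 (63.6%). Over all genes tested, the shares were 27.6% higher and 28.4% lower. The 15 include the noncoding NDUFA6-DT, NDUFA4 and NDUFA4L2. In neither family was a gene called lower by edgeR or DESeq2, or lower at an unadjusted p under 0.05. NDUFS5, the complex I gene with the highest level per length, was at 331.7 ± 18.5 FPKM (fragments scaled to gene length and library size) with DMSO and at 398.9 ± 9.19 FPKM with AS1842856 (SD, n = 3 per group), and its counts rose by 0.26 on the log2 scale. NDUFC1 was called lower (log2 fold change -0.25, adjusted p = 0.0107 in edgeR's quasi-likelihood test), but its groups overlapped. The NDUFC1 call was lost with DESeq2, with limma on FPKM, and without DMSO replicate A or AS1842856 replicate C. NDUFA4, which is named after complex I and is now counted with complex IV, rose by 0.17, a call lost with limma on FPKM and without DMSO replicate C (0.08). Its paralog NDUFA4L2, which is known as a hypoxia-induced gene, was near the detection limit at 0.130 to 0.455 CPM with DMSO and 0.561 to 1.02 CPM with AS1842856, and was not called (adjusted p = 0.0602).

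In complex II, SDHA carries the flavin at which succinate is oxidised, SDHB the iron-sulfur clusters, and SDHC and SDHD anchor the enzyme in the membrane. SDHA (ENSG00000073578, chr5:218241-256700) was at 233.8, 234.3 and 229.8 CPM with DMSO and at 289.5, 296.2 and 297.6 CPM with AS1842856. The SD within each group was under 5 CPM and SDHA rose by 0.34 in log2 units (SE 0.036, adjusted p = 5.76e-17 in edgeR's quasi-likelihood test). SDHB was at 91.3, 91.9 and 83.8 CPM with DMSO and at 105.3, 107.5 and 98.8 CPM with AS1842856, and rose by 0.22. SDHC was at 90.2, 92.3 and 84.4 CPM with DMSO and at 95.3, 98.8 and 100.4 CPM with AS1842856, and rose by 0.14, a call lost with limma on FPKM and without DMSO replicate C (0.10). SDHD was at 54.7, 59.8 and 55.1 CPM with DMSO and at 55.6, 49.4 and 51.4 CPM with AS1842856. Its groups overlapped and it was not called (log2 fold change -0.12, 95% interval -0.23 to -0.01, adjusted p = 0.0673), but was called lower without DMSO replicate A (-0.14) or AS1842856 replicate A (-0.17). The fold changes of SDHA and SDHB lay above those of SDHC and SDHD, and the differences between the genes were not tested.

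Complex III had 8 of 10 nuclear genes called higher and a median log2 fold change of 0.26, and edgeR, DESeq2 and an unadjusted p under 0.05 gave 0 lower. The share higher was 80%, against 27.6% of all genes tested, of which 28.4% were lower. UQCRH (ENSG00000173660, chr1:46303631-46316776), the hinge protein that binds cytochrome c1, was at 256.4, 229.3 and 237.6 CPM with DMSO and at 300.7, 325.3 and 313.9 CPM with AS1842856, and rose by 0.38 (SE 0.037, adjusted p = 2.52e-19 in edgeR's quasi-likelihood test). CYC1, cytochrome c1 itself, was at 416.5, 391.3 and 411.7 CPM with DMSO and at 487.8, 478.4 and 494.4 CPM with AS1842856, and rose by 0.26. The Rieske protein UQCRFS1 and the core protein UQCRC2 rose by the same 0.26, and the core protein UQCRC1 by 0.36. The genes not called were UQCR11, a small subunit, with a log2 fold change of -0.08, and UQCRHL, an intronless copy of UQCRH at 2.58 ± 0.796 CPM with DMSO (SD, n = 3).

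In complex IV, 11 of 17 nuclear genes were tested, of which 7 (63.6%) were called higher, and the median log2 fold change was 0.28. In edgeR 0 were lower, also at an unadjusted p under 0.05, and DESeq2, which tested 15 of the genes, called 1 lower (COX6B2). Over all genes tested, edgeR called 27.6% higher and 28.4% lower. Several subunits of this complex exist as tissue isoforms. COX4I1, the widely expressed form of the largest nuclear subunit, was at 175.4, 146.8 and 163.0 CPM with DMSO and at 209.8, 199.2 and 208.1 CPM with AS1842856, and rose by 0.34, while its counterpart COX4I2 had no counts. COX6A1 rose by 0.28 and COX6B1 by 0.37, and the muscle and testis forms COX6A2 and COX6B2 had at most 1 and 5 counts in any library. COX5A (ENSG00000178741, chr15:74919791-74938168), which binds the matrix side of the enzyme, was at 64.9, 60.5 and 56.3 CPM with DMSO and at 77.6, 85.7 and 75.4 CPM with AS1842856, and rose by 0.39 (SE 0.052, adjusted p = 5.5e-12 in edgeR's quasi-likelihood test). Its partner COX5B did not move with it, at 61.1 ± 4.91 and 60.9 ± 4.09 CPM (SD, n = 3 each), and its log2 fold change was 0.00 with a 95% interval from -0.11 to 0.10. COX7A2 (0.03) and COX6C (0.02) were also not called, whereas COX7A2L, which helps complexes III and IV to associate, rose by 0.30. COX8A, the complex IV gene with the highest level per length, had a log2 fold change of 0.28 with overlapping groups and was not called (adjusted p = 0.174), though it was without AS1842856 replicate B (0.38) or C (0.17).

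In complex V, 19 of 21 nuclear genes were tested, with 12 higher (63.2%), 1 lower (5.26%) and a median of 0.14. The shares of all genes tested were 27.6% and 28.4%. The soluble part, a catalytic head on a rotating stalk, is built of ATP5F1A to ATP5F1E, of which 4 of 5 were called higher. ATP5F1B, the catalytic beta subunit and the nuclear subunit transcript with the highest level per length (384.5 ± 8.60 FPKM with DMSO, SD, n = 3; chr12:56638175-56646068), was at 874.8, 916.2 and 903.9 CPM with DMSO. With AS1842856 it was at 1020.0, 1037.2 and 1050.1 CPM, and rose by 0.21. ATP5F1A rose by 0.26 and ATP5F1D by 0.32, but ATP5F1E was not called (-0.04). ATP5PD, a subunit of the peripheral stalk, was at 40.4, 40.4 and 42.6 CPM with DMSO and at 56.5, 53.4 and 48.8 CPM with AS1842856, and rose by 0.36. The ring through which protons pass is made of 1 protein encoded by ATP5MC1, ATP5MC2 and ATP5MC3, of which ATP5MC3 rose by 0.14 and the others, at 0.11 and 0.06, were not called. ATP5MC1 was called higher without DMSO replicate A or AS1842856 replicate B (0.16 in both), and with the replicate letter in the model (0.12). ATP5IF1, which inhibits the enzyme when it runs in reverse, was called lower (-0.11, adjusted p = 0.0284 in edgeR's quasi-likelihood test), with overlapping groups. The ATP5IF1 call was lost with DESeq2, with limma on FPKM, and without DMSO replicate A or AS1842856 replicate B or C. ATP5S, an old name for a coupling factor, had a log2 fold change of 0.01.

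**Figure D3:**
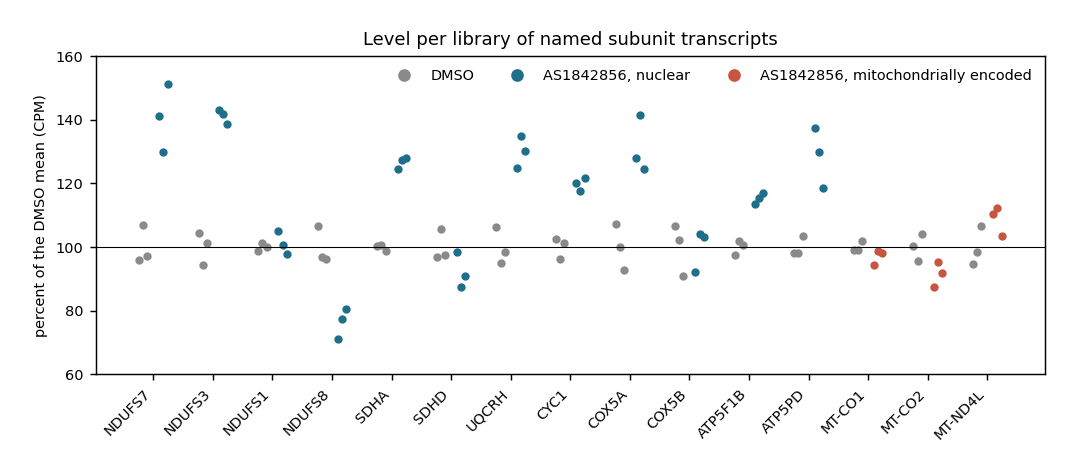
Level of 15 named subunit transcripts in each library, as a percentage of the gene's DMSO mean in CPM (vertical axis), with 3 points per group. NDUFS7, NDUFS3, SDHA, UQCRH, CYC1, COX5A, ATP5F1B and ATP5PD are apart upward, NDUFS8 is apart downward and NDUFS1, SDHD and COX5B overlap their controls.

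Among the mitochondrially encoded genes, 7 encode the membrane arm of complex I, MT-CYB the cytochrome b of complex III, MT-CO1 to MT-CO3 the catalytic core of complex IV, and MT-ATP6 and MT-ATP8 parts of the membrane portion of complex V. On GRCh38 they lie between chrM:3307 and chrM:15887, and MT-ND6 alone is read from the opposite strand. MT-CO1, which holds the site of oxygen reduction, had the highest level per length, 4710.5 ± 80.8 FPKM with DMSO and 4572.4 ± 111.8 FPKM with AS1842856 (SD, n = 3 per group). MT-CO2 was at 3599.3 ± 157.9 and 3293.8 ± 140.6 FPKM and MT-ATP6 at 3552.1 ± 172.8 and 3446.5 ± 123.4 FPKM, so that this pair was within its spread with DMSO, while with AS1842856 the means were farther apart than the SD of either. The lowest levels were those of MT-ND5 (659.3 ± 26.4 FPKM with DMSO), MT-ND6 (651.5 ± 48.5) and MT-ATP8 (312.3 ± 53.7), the first pair again within its spread. All 13 were over 100 FPKM, where the 83 tested nuclear genes had a median of 29.9 FPKM with DMSO and 9 of them reached 100 FPKM.

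**Figure D4:**
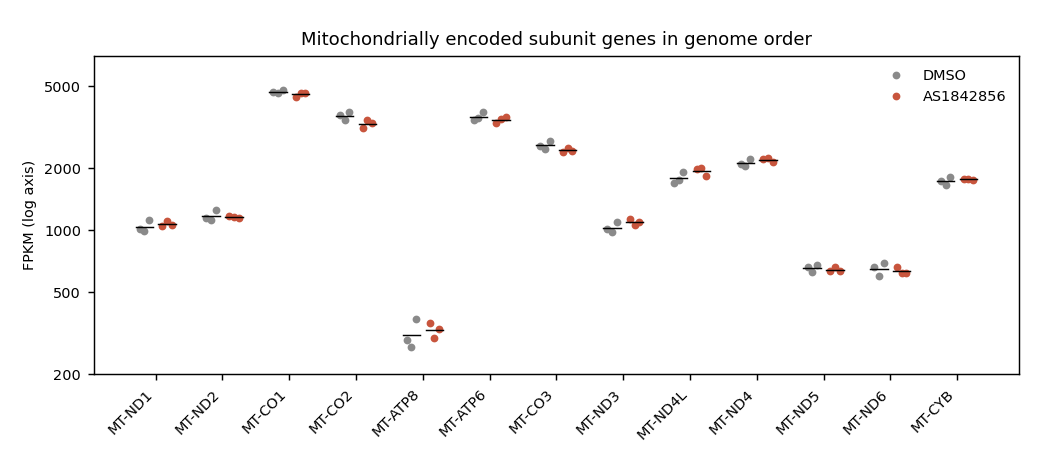
FPKM per library (log axis, points, with lines at the group means) of the 13 mitochondrially encoded subunit genes in the order of their start positions. Within each gene the DMSO and AS1842856 points lie close together, while genes differ from about 312.3 FPKM (MT-ATP8) to 4710.5 FPKM (MT-CO1) in the DMSO means.

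MT-CO2 (chrM:7586-8269), which takes electrons from cytochrome c, was at 2485.8, 2367.4 and 2578.7 CPM with DMSO and at 2164.2, 2359.5 and 2277.5 CPM with AS1842856. It fell by 0.13 in log2 units (SE 0.032, adjusted p = 0.000215 in edgeR's quasi-likelihood test) with groups just apart, a call lost with limma on FPKM without a filter. MT-CO3 was called lower by less (-0.08, adjusted p = 0.0232 in edgeR's quasi-likelihood test), with overlapping groups. It lost the call with limma on FPKM, with the replicate letter in the model, and without DMSO replicate C or AS1842856 replicate A or C. MT-CO1 was apart downward, at 7238.3, 7239.1 and 7450.3 CPM against 6890.7, 7227.6 and 7165.6 CPM, but was not called (-0.04, adjusted p = 0.224). In complex IV, 7 of 11 tested nuclear transcripts were thus called higher, while the mitochondrially encoded ones lay between -0.13 and -0.04. MT-ND4L (chrM:10470-10766) was at 506.2, 525.8 and 570.3 CPM with DMSO and at 590.4, 600.0 and 552.0 CPM with AS1842856. It was called higher (0.12, adjusted p = 0.00163 in edgeR's quasi-likelihood test) although the groups overlapped, and the call was lost with limma on FPKM. MT-ND3 was called higher by 0.09 and lost the call when any of 4 libraries was left out (DMSO replicate A or B, AS1842856 replicate A or C). It also lost the call with DESeq2, with limma on FPKM and with no filter on low counts. Of the others, MT-CYB had a log2 fold change of 0.03 (95% interval -0.03 to 0.09) and MT-ND1, MT-ND2, MT-ND4, MT-ND5 and MT-ND6 lay between -0.03 and 0.06. With 1 library left out, MT-ATP8 (0.21), MT-ND1 (0.09) and MT-ND4 (0.08) were called without DMSO replicate C, MT-ATP6 (-0.07) without DMSO replicate A and MT-ND6 (-0.09) without DMSO replicate B.

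Some of these reading frames overlap, so that a read can fall on more than 1 gene. The last 46 bases of MT-ATP8, 22.2% of its 207 bases, are also the first of MT-ATP6, and are shown in the GENCODE sequence with the start codon of MT-ATP6 in capitals.
MT-ATP8 and MT-ATP6 (chrM:8527-8572, plus strand): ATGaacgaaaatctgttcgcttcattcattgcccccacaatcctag

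MT-ATP8 was at 60.9, 56.5 and 77.7 CPM with DMSO and at 74.2, 62.3 and 69.2 CPM with AS1842856, and its fold change was poorly fixed (0.07, SE 0.15). MT-ND4L and MT-ND4 share 7 bases in the same way. Reads of these genes can also be split with their nuclear copies. Of 394 annotated copies, 28 had any count, and they summed to 232.3, 162.8 and 243.5 CPM with DMSO and to 207.1, 192.7 and 147.1 CPM with AS1842856, between 0.622% and 0.974% of the counts of copies and genes together. The copy with the most counts, MTATP6P1, was not called (-0.23, adjusted p = 0.447).

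The other genes of mitochondrial DNA differed from the subunit genes. The rRNA genes MT-RNR1 and MT-RNR2, which encode the RNAs of the mitochondrial ribosome, summed to 4792, 4843 and 5261 CPM with DMSO and to 3283, 3526 and 3217 CPM with AS1842856. The groups were far apart, and the sum fell by 32.7%. MT-RNR2 fell by 0.58 in log2 units (SE 0.032, adjusted p = 2.73e-36 in edgeR's quasi-likelihood test) and MT-RNR1 by 0.52. How RNA was selected for the libraries is not given in the sources used here, and its part in the level of rRNA was not tested. Of the tRNA genes, MT-TC alone was called, with a rise of 0.43 from 15.5 to 17.2 CPM with DMSO to 21.0 to 23.6 CPM. Of the 24 rRNA and tRNA genes 12 were tested, with 1 higher (8.33%), 2 lower (16.7%) and a median log2 fold change of 0.07. Of all genes tested, 27.6% were higher and 28.4% lower.

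Genes that express mitochondrial DNA had 11 higher (33.3%) and 9 lower (27.3%) of 33 tested and a median of -0.04, near the 27.6% and 28.4% of all genes. LRPPRC, which stabilises mitochondrial mRNAs, was at 170.3, 186.2 and 185.0 CPM with DMSO and at 234.1, 244.4 and 237.7 CPM with AS1842856, and rose by 0.41. TFB2M, a transcription factor of mitochondrial DNA, was at 47.5, 50.2 and 44.6 CPM with DMSO and at 33.7, 36.6 and 35.1 CPM with AS1842856, and fell by 0.43. MTERF1, a termination factor, rose by 0.45 and PTCD2 fell by 0.40. Assembly factors, which help to build the complexes and stay out of them, had 13 of 48 higher (27.1%), 10 lower (20.8%) and a median of 0.03, also near the shares of all genes, and their difference from the subunits was not tested. COX10 and COX16, which serve complex IV, both rose by 0.61, COX10 from 34.7, 31.4 and 33.9 CPM with DMSO to 52.0, 52.5 and 48.0 CPM. SCO2, a copper chaperone of complex IV, fell by 0.95 at about 1 to 2 CPM with DMSO, a call lost with DESeq2 or limma, and without DMSO replicate B (-0.52) or AS1842856 replicate A (-0.81) or C (-0.86). NDUFAF8 fell by 0.30.

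The neighbouring steps were mixed as well. Of the citric acid cycle and pyruvate dehydrogenase genes, 9 of 17 (52.9%) were called higher and 5 (29.4%) lower, and the median log2 fold change was 0.18. The shares of all genes tested were 27.6% higher and 28.4% lower. DLAT, a subunit of pyruvate dehydrogenase, rose by 0.49, whereas PDHB of the same enzyme fell by 0.47 and SUCLG2 by 0.36. Among the genes for cytochrome c and coenzyme Q synthesis, 5 of 14 (35.7%) were higher and 3 (21.4%) lower (median 0.06). CYCS, cytochrome c, rose by 0.32 and COQ9 by 0.30, while COQ8A fell by 1.10 and COQ2 by 0.48. Of the adenine nucleotide and phosphate carriers and uncoupling proteins, 3 of 6 tested were higher and 1 lower (median 0.16). SLC25A6, an ADP/ATP carrier, rose by 0.72, SLC25A3, the phosphate carrier, by 0.18, and UCP2, an uncoupling protein, fell by 1.54 from 41.4, 39.1 and 40.7 CPM with DMSO to 13.4, 13.8 and 14.7 CPM with AS1842856.

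**Figure D5:**
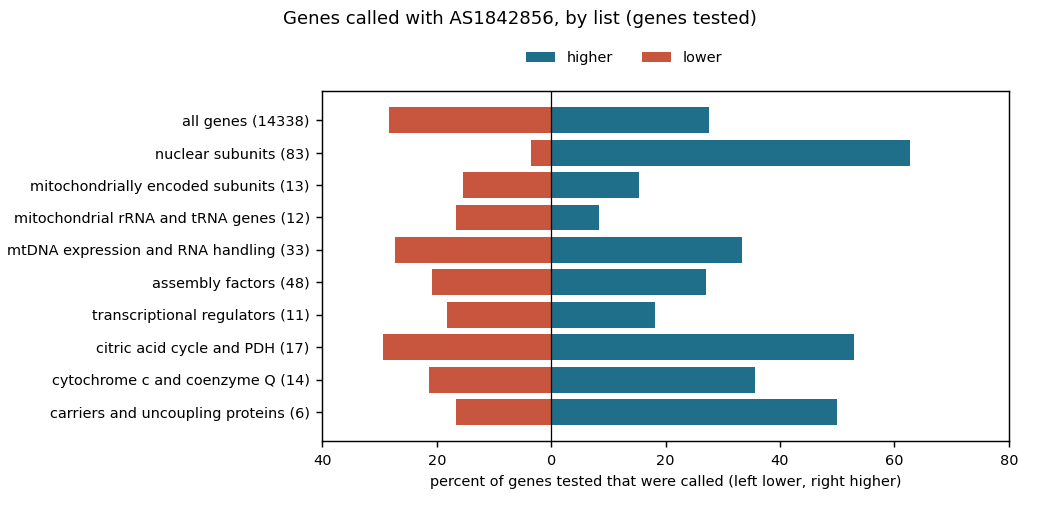
Percent of the genes tested in each list (number in brackets) that were called lower (left of 0) or higher (right of 0) with AS1842856, with all genes tested at the top. The nuclear subunits have 62.7% higher and 3.61% lower, against 27.6% and 28.4% of all genes.

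Among known transcriptional regulators of respiratory genes, 2 of 11 tested (18.2%) were higher and 2 (18.2%) lower, against 27.6% and 28.4% of all genes tested. ESRRA, an orphan receptor that acts on many subunit genes together with PGC-1 coactivators, was at 68.7, 68.4 and 76.0 CPM with DMSO and at 161.5, 159.0 and 166.1 CPM with AS1842856. The groups were far apart and ESRRA rose by 1.19 in log2 units (SE 0.044, adjusted p = 1.53e-73 in edgeR's quasi-likelihood test). ESRRG rose by 2.16 from a low level, at 0.137, 0.326 and 0.215 CPM with DMSO and at about 1 CPM with AS1842856. GABPA fell by 0.21 with overlapping groups, a call lost with limma on FPKM. YY1 fell by 0.11, a call lost without DMSO replicate C or AS1842856 replicate C (-0.10 in both) and with limma on FPKM without a filter. NRF1 was not called (0.10, adjusted p = 0.297 in edgeR's quasi-likelihood test), and PPARGC1A, which encodes PGC-1 alpha, had too few counts to be tested.

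Some subunit genes share exons with other genes, and whether counting used the strand is not given in the sources used here. Of NDUFS7, 50.9% of exonic bases belonged to no other gene, the largest partner being AC005329.1 on the opposite strand with 9 counts over all libraries, against 3571 for NDUFS7. Of NDUFS3, 77.6% belonged to no other gene, with PTPMT1 on the same strand as the partner. Other partners had many counts. For NDUFB11, called higher with 55.1% of exonic bases of its own, the opposite-strand partner RBM10 had 11858 counts against 10558. The part of such overlaps in the calls was not tested. Of the 51 tested nuclear genes with at least 90% of exonic bases of their own, 36 (70.6%) were called higher and 2 lower, and the median was 0.22. Without the readthrough genes, UQCRHL, NDUFA6-DT, ATP5IF1, ATP5S and COX7A2L, 51 of 78 nuclear genes were higher and 2 lower.

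The genes left untested were those with almost no counts. NDUFC2-KCTD14, COX4I2, COX7B2 and ATP5MGL had none in any library, and ATP5MF-PTCD1, COX6A2 and COX8C had at most 1 per library. COX6B2 had 4, 5 and 3 counts with DMSO and none with AS1842856, and COX7A1, the heart and muscle isoform, had 15, 6 and 15 with DMSO and 7, 8 and 5 with AS1842856. Of the 59 subunit genes that were called, 39 were called in every alternative analysis, 38 of them nuclear and higher, and none changed sign in any.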

How the data were processed

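RNA-Seq was measured in 6 libraries of BT549 cells, 3 per group, which the study calls biological replicates. The authors deposited raw counts per gene, which had not been normalised, and FPKM values for each library, which had been divided by gene length and library size. Mapping was with STAR per the methods of the study, and the submitters' processing notes also name CASAVA, Bowtie 0.12.2 and GRCh38. The counting tool and the use of strand are not given in the sources used here. All 58735 gene identifiers matched GENCODE release 29 (Ensembl 94), which gave symbols, positions and exons. Every pair of replicates differed beyond counting noise (chi-square per degree of freedom 2.38 to 3.28).

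Counts were analysed with edgeR 4.0.16 in R 4.3.3: filterByExpr (minimum count 10, minimum total 15), TMM, robust glmQLFit and glmQLFTest with group alone, and Benjamini-Hochberg adjustment over 14338 genes holding 99.9% of the counts, with a threshold of 0.05. The standard error is the log2 fold change divided by the square root of F. The 95% intervals were made from it with the multiplier of a normal distribution, so they can be too narrow beside the test. The procedures were tested on simulated counts first. Alternatives were DESeq2 1.42.0, other scalings and filters, limma-trend (limma 3.58.1) on FPKM with pseudocounts of 1 and 0.1 before log2, the replicate letter as a block, and each library left out. Restrictions to core subunits and to genes with at least 90% of exonic bases of their own were chosen after seeing the data. Members, lists, motifs and tests were chosen with earlier results of these data known, and lists were written from general knowledge.

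Genes were named by rule: all mitochondrially encoded subunits, the SDH genes and CYC1, in each complex the largest called rise and fall without overlap, the highest FPKM and the gene without a call nearest to 0, isoform families, and in each other list the 2 largest called rises and falls. Further subunits (NDUFS3, NDUFV1, UQCRC1, UQCRC2, UQCRFS1, ATP5F1A, ATP5F1D and others) were named after their values were seen, to complete a functional group. Some genes are counted in the totals but are not reported by name here. Replicate letters are shared by the groups, and samples of the same letter did not deviate together (correlations -0.0654, 0.0148 and -0.0643 over 9204 genes). Intervals cover the spread between these libraries only.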

Additional observations from a re-analysis of the deposited data

How the results depend on the processing

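The count of nuclear genes called higher, 52, stayed between 39 (limma on log2(FPKM + 1) without a filter) and 52 under the alternatives that tested all nuclear genes, and was 45 with DESeq2 and 44 to 52 with each library left out. No scaling moved the median of the nuclear genes outside 0.206 to 0.213. It was 0.176 with limma on log2(FPKM + 1) without a filter, and 0.186 to 0.218 with each library left out. The count called lower, 3, was 1 with limma on log2(FPKM + 1) or log2(FPKM + 0.1), and 2 to 7 with each library left out (7 without AS1842856 replicate A, 5 without DMSO replicate C). Of the mitochondrially encoded genes, 1 was higher with DESeq2 or with no filter on low counts. With limma 0 were higher, on log2(FPKM + 1), log2(FPKM + 0.1) or log2(FPKM + 1) without a filter, where 1, 1 and 0 had an unadjusted p under 0.05. The count lower, 2, was 1, 1 and 0 by the same fits, with 1 at an unadjusted p under 0.05 in each. With each library left out, 1 to 5 were higher (5 without DMSO replicate C) and 1 to 3 lower, and their median ran from -0.046 to 0.034. With the replicate letter as a block, 1 mitochondrially encoded gene was lower, since MT-CO3 lost its call. With the block, 52 nuclear genes were higher and 3 lower, so these totals did not move. The genes behind them did, as NDUFV3 lost its call and ATP5MC1 gained one (0.12). The replicate letters do not pair the samples. The causes of these differences were not tested. Of 1065 alternative values for 67 named genes, 1001 kept the call or its absence, 51 lost the call, 13 gained it and 0 reversed. Genes without a call could change sign near 0 and still count as kept, as COX5B did (-0.07 to 0.05). The 9 subunit genes with too few counts did not pass the filter of the main fit. Fits without that filter tested some of them, and DESeq2 called COX6B2 lower.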
